A study of Mus musculus with 6 samples.

Results

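The inducible, constitutive and mitochondrial heat-shock chaperones of the liver were described across mice overdosed with acetaminophen (APAP) and mice given saline. The set was given by name and held 10 of the 34745 genes of the deposited table, each found by its symbol: Hspa1a, Hspa1b, Hspa8, Hsph1, Dnajb1, Hsp90aa1, Hspb1, Hspb8, Hspd1 and Hspe1. All 10 passed the filter on low counts, which kept 13734 genes. Hspa1a, with 4, 15 and 8 counts in WT1, WT2 and WT3, passed it only through the APAP libraries. After APAP all 10 were higher in both libraries than in every saline library, against 24.0% of all genes tested. By the test 8 of them rose, against 3.70% of all genes tested, and 4 did when the library WT2 was left out. The saline libraries expressed Xist and the APAP libraries Y-linked genes, so that treatment and sex-linked expression cannot be told apart. The 2 HSP70 genes Hspa1a and Hspa1b together went from 6.26 ± 3.21 CPM (counts scaled to a common library size; SD, n = 3 libraries) in saline liver to 1038 ± 325 CPM (SD, n = 2 libraries), a 166-fold difference, whereas the constitutive HSP70 gene Hspa8 was 1.76-fold higher and did not pass the test.

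Bulk RNA-Seq was performed on whole liver to compare gene expression after an overdose of APAP with that of uninjured liver. The APAP mice were wild type, received 300 mg/kg by intraperitoneal injection after an overnight fast and were sampled at 12 h, and the saline mice were fasted and injected with the vehicle. Young adult males of the C57BL/6J strain are named in the study's methods. Of the 6 samples, 3 in each group, 5 libraries were analysed here, namely APAP replicates 1 and 3 and the libraries WT1, WT2 and WT3, which were read as the saline group because all mice were wild type and saline is the only group besides APAP; APAP replicate 2 was not analysed here.

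Heat-shock proteins bind unfolded or damaged proteins, prevent their aggregation and assist refolding. Their inducible genes are switched on when heat shock factor 1, encoded by Hsf1, is released from chaperones, forms trimers and binds heat-shock elements, which are alternating inverted repeats of the unit GAA upstream of these genes. APAP is oxidized in hepatocytes to a reactive quinone imine that binds proteins once glutathione is used up, which makes the liver after an overdose a setting of damaged protein, most of all in mitochondria.

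The total count was between 13378445 and 15976339 per library, and a count of 3 was worth between 0.176 and 0.269 CPM. The libraries differed by more than treatment. Xist, the RNA of the inactive X chromosome of females, lay between 289.6 and 914 CPM in saline liver but at 0.764 and 1.73 CPM after APAP, and 4 Y-linked genes had at least 216 counts in each APAP library and at most 1 count in a saline library. The saline libraries therefore went against the named sex, and treatment and sex-linked expression cannot be told apart in any value given here. All 8 hepatocyte markers were detected, as the labelled tissue requires. Their summed level was 66605 to 109448 CPM after APAP and 117797 to 159181 CPM in saline liver. By edgeR's test 1 of them, Ass1, fell, while 5 had an unadjusted p under 0.05, of which 0 were higher. In 6 markers both APAP libraries lay below every saline library, against 20.1% of all genes tested. The median log2 fold change of the list was −0.97. Of 8 neutrophil markers tested, 7 rose, where 3.70% of all genes tested did. Camp, Cxcr2, Ltf, Mmp8, Retnlg and S100a8 passed the filter on low counts only through the APAP libraries. For these genes being tested required counts after APAP. The neutrophil list summed to between 77.4 and 120.0 CPM after APAP and between 4.84 and 8.35 CPM in saline liver. Camp and Ly6g were at 0 in saline liver. Of 5 cholangiocyte markers, Sox9 and Spp1 rose, and the list summed to between 347 and 355 CPM against 47.1 to 51.9 CPM. Of 11 table entries for monocyte and macrophage markers 2 rose (337 to 378 CPM summed, against 220.1 to 283 CPM), and of 8 stellate cell markers 1 rose (354 to 422 CPM against 387 to 435 CPM). None of the 8 endothelial markers (167 to 239.5 CPM against 158 to 236 CPM) and of the 3 tested lymphocyte markers (5.64 to 5.75 CPM against 2.67 to 7.77 CPM) passed edgeR's test (1 and 0 at an unadjusted p under 0.05), and the likelihood ratio test, the exact test and DESeq2 called 0 of them. The part of these cell types in the values below was not tested. In bulk liver, fewer cells of a type and less RNA per cell cannot be told apart.

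Hspa1a and Hspa1b encode nearly the same stress-inducible cytosolic HSP70 and lie next to each other on the minus strand of chromosome 17 (GRCm38, Hspa1a at chr17:34969190-34972156 and Hspa1b at chr17:34956436-34959238). Their promoters are shown because these were the members with the largest fold changes and the stretch before both starts is almost identical. The 250 bases upstream of each start (RefSeq, GRCm38.p6) are given 5′ to 3′, with the match to a heat-shock element of 2 units in capitals.
Hspa1a, chr17:34972157-34972406, minus strand: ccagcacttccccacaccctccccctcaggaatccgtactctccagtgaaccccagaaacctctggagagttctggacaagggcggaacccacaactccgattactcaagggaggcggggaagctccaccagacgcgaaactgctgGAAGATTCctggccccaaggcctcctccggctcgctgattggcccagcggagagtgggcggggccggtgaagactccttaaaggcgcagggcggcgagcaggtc
Hspa1b, chr17:34959239-34959488, minus strand: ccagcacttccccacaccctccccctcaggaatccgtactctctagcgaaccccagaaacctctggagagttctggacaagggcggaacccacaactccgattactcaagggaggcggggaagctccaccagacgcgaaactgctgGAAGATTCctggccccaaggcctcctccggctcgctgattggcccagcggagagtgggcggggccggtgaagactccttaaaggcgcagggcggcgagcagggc
The stretches differ at 3 of 250 bases, C44T, T47C and T249G, with positions counted from 1 at the 5′ end and the base of Hspa1a first. Both hold GAAGATTC, whose first base lies 104 bases upstream of the start.

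Elements were searched for in the RefSeq promoter windows, which run from 250 bases before to 50 bases after each start. An element of 3 units was GAA, 2 bases of any kind (NN), TTC, NN and GAA in this order, or TTC, NN, GAA, NN and TTC. An element of 2 units was GAA, NN and TTC, or TTC, NN and GAA. Both strands were searched, and every element of 3 units also holds one of 2 units. Windows were matched by symbol for 8 members. Elements of 3 units were found for 3 of the 8 members, Hspd1, Hspe1 and Hsph1, against 0.662% of 27025 genes, and elements of 2 units for 7 of the 8, against 16.97% of genes. The windows of Dnajb1 held neither. Among 63 other chaperone and cochaperone genes with a window, 2 held 3 units (Chordc1 and Dnajb6) and 16 held 2 units (25.4%). Stretches of 30 bases around the elements of the members that rose are shown 5′ to 3′ on the strand of the gene, with the element in capitals.
Hspe1, chr1:55088053-55088082, plus strand: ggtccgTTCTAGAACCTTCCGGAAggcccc
Hspd1, chr1:55088053-55088082, minus strand: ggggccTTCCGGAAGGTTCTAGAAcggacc
Hsph1, chr5:149636280-149636309, minus strand: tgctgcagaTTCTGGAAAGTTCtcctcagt
Hsph1, chr5:149636351-149636380, minus strand: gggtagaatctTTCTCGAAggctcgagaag
Hspb1, chr5:135887791-135887820, plus strand: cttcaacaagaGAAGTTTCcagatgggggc
Hspb1, chr5:135887811-135887840, plus strand: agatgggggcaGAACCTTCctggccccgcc
Hspe1 and Hspd1 are transcribed away from each other, and their element is a single stretch of DNA read on both strands. That stretch lies in an annotated exon of Hspd1. The RefSeq window of Hspd1 at chr1:55088194-55088493 holds no element, and its other window does. The element of 3 units of Hsph1 lies after its starts, in an annotated exon, and that of 2 units before the starts of both its RefSeq windows. A match says that the letters are present and no more.

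Hspa1a had 354 CPM in APAP replicate 1 and 499 CPM in APAP replicate 3, against 0.359, 0.996 and 0.534 CPM in WT1, WT2 and WT3. The saline values rested on 4, 15 and 8 counts, of which that of WT1 was just over the floor of 3, and the groups were far apart. The fitted log2 fold change was 9.35 (standard error, SE, 0.46, adjusted p = 0.000583, as every adjusted p below from the quasi-likelihood test of edgeR, with the Benjamini-Hochberg method over all genes tested), the 12th highest of all genes tested. Hspa1b had 454 and 769 CPM after APAP and 3.76, 3.72 and 9.42 CPM in WT1, WT2 and WT3, so that the lower APAP library was 48.2 times the highest saline library. Its log2 fold change came to 6.75 (SE 0.55, adjusted p = 0.00224), and 7.35 without WT3, its highest saline library.

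The split between these genes was uncertain, since 58.8% of the 50-base words in the exons of Hspa1a also occur in those of Hspa1b. Summed before the fit, the pair had 808 and 1268 CPM after APAP and 4.12, 4.72 and 9.95 CPM in saline liver. Its log2 fold change came to 7.37 (SE 0.52, adjusted p = 0.00181). Hspa1b held 56.2% (95% exact binomial interval 55.3 to 57.0) and 60.7% (60.0 to 61.3) of the pair's counts in APAP replicates 1 and 3. In saline liver it held more, 91.3% (79.2 to 97.6), 78.9% (67.6 to 87.7) and 94.6% (89.7 to 97.7) in WT1, WT2 and WT3, with intervals that cover counting error only. The APAP and saline shares did not overlap. Gm20481, on the plus strand, overlaps Hspa1a and was at 3 counts or fewer in every library.

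Hspa8 encodes the constitutive HSP70, which folds new proteins and serves chaperone-mediated autophagy (chr9:40800984-40805200, plus strand). It was at 1509 and 1587 CPM after APAP and at 755, 752 and 1136 CPM in WT1, WT2 and WT3. The groups did not overlap, but WT3 was 1.51 times the lowest saline library, and the lower APAP library was 1.33 times WT3. The log2 fold change of 0.81 (SE 0.30, adjusted p = 0.157) did not pass the test. Hspa8 passed it when DESeq2 was used (adjusted p = 0.0388) or when only library size was corrected for (adjusted p = 0.0481). The counts of Hspa1a and Hspa1b came to 53.6% and 79.9% of those of Hspa8 in the APAP libraries and to between 0.546% and 0.876% in saline liver. Of the 50-base words of Hspa8, 74.8% occur in other genes, most of all in the retrocopy Gm15459 (70.0%), which was not analysed here.

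Hsph1 and Dnajb1 encode partners of HSP70. Hsph1 encodes the HSP110 that acts as a nucleotide exchange factor for HSP70 (chr5:149614287-149636376, minus strand) and was at 358 and 632 CPM after APAP. In WT1, WT2 and WT3 it was at 47.8, 55.8 and 77.1 CPM, each far below both APAP libraries. It was 8.21-fold higher after APAP (log2 fold change 3.04, SE 0.34, adjusted p = 0.00607). Dnajb1 encodes the HSP40 that delivers substrates to HSP70 and stimulates its ATPase (chr8:83608175-83611902, plus strand). It had 154 and 367 CPM after APAP against 33.0, 25.4 and 28.4 CPM, the saline libraries being close together and the APAP libraries well apart. Its log2 fold change came to 3.17 (SE 0.38, adjusted p = 0.00708), and 2.40 (adjusted p = 0.0137) without APAP replicate 3. Almost none of the sequence of either gene occurred elsewhere among the exons of other genes (0 words for Hsph1 and 0.441% for Dnajb1).

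Hsp90aa1, the inducible cytosolic HSP90, which matures kinases and steroid receptors (chr12:110690605-110702728, minus strand), had 476 and 868 CPM after APAP. It had 60.1, 68.5 and 121 CPM in WT1, WT2 and WT3, again with WT3 the highest and no overlap. The log2 fold change came to 3.01 (SE 0.41, adjusted p = 0.0117). The retrocopy Gm12346 shares 51.5% of its words and held between 32.2% and 50.6% as many counts. With these counts added, an alternative chosen after seeing the data, the log2 fold change was 2.89.

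The small heat-shock proteins, which hold unfolded proteins for HSP70 without using ATP, behaved unlike each other. Hspb1 (chr5:135887919-135889563, plus strand), which also binds actin, was at 149.5 and 328 CPM after APAP and at 17.5, 10.1 and 12.4 CPM in saline liver. Both APAP libraries lay far above the saline range. It was 17.9-fold higher (log2 fold change 4.17, SE 0.41, adjusted p = 0.00445), with a log2 fold change of 3.48 without APAP replicate 3. The retrocopy Hsp25-ps1 shares 51.6% of the words of Hspb1 and held between 18.8% and 26.8% as many counts. The reads of Hspb1 may therefore not all be its own. With retrocopy counts added, its log2 fold change was 4.18. Hspb8 (chr5:116408491-116422864, minus strand), which works with Bag3 in the autophagy of aggregated protein, was at 359.8 and 372 CPM against 196, 198 and 324 CPM. The WT3 library came within 1.11-fold of the lower APAP library. Its log2 fold change of 0.61 (SE 0.30, adjusted p = 0.259) did not pass the test, and it was the smallest of the 10.

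Hspd1 and Hspe1 encode HSP60 and HSP10, the barrel and the lid of the chaperonin that folds proteins in the mitochondrial matrix. The genes lie head to head on chromosome 1 (Hspd1 at chr1:55077835-55088243, minus strand; Hspe1 at chr1:55088132-55091307, plus strand) and their annotated spans overlap by 112 bases. Hspd1 was at 817 and 1044 CPM after APAP and at 307, 269 and 294 CPM in saline liver. The saline libraries differed by no more than 1.14-fold, and the groups were apart. Its log2 fold change came to 1.68 (SE 0.25, adjusted p = 0.0147). Hspe1 was at 272 and 329 CPM against 71.5, 64.8 and 69.7 CPM, the narrowest saline range of the 10 genes. Its log2 fold change came to 2.13 (SE 0.21, adjusted p = 0.00471). Hspd1 had 3.01 and 3.17 counts for each count of Hspe1 in the APAP libraries and 4.29, 4.14 and 4.22 in WT1, WT2 and WT3, so that these ratios did not overlap. The strand setting of the counting is not given in the sources used here, and reads from the overlap cannot be assigned without it. Of the words of Hspd1 and of Hspe1, 44.8% each also occur in other genes. The retrocopy Hspd1-ps3 shares 42.8% of the words of Hspd1 and held between 27.8% and 29.9% as many counts. Another gene, which was not analysed here, shares 35.2% of the words of Hspe1. The levels and ratios of Hspd1 and Hspe1 may therefore not rest on their own reads alone. With retrocopy counts added, the log2 fold change of Hspd1 was 1.67.

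**Figure D1:**
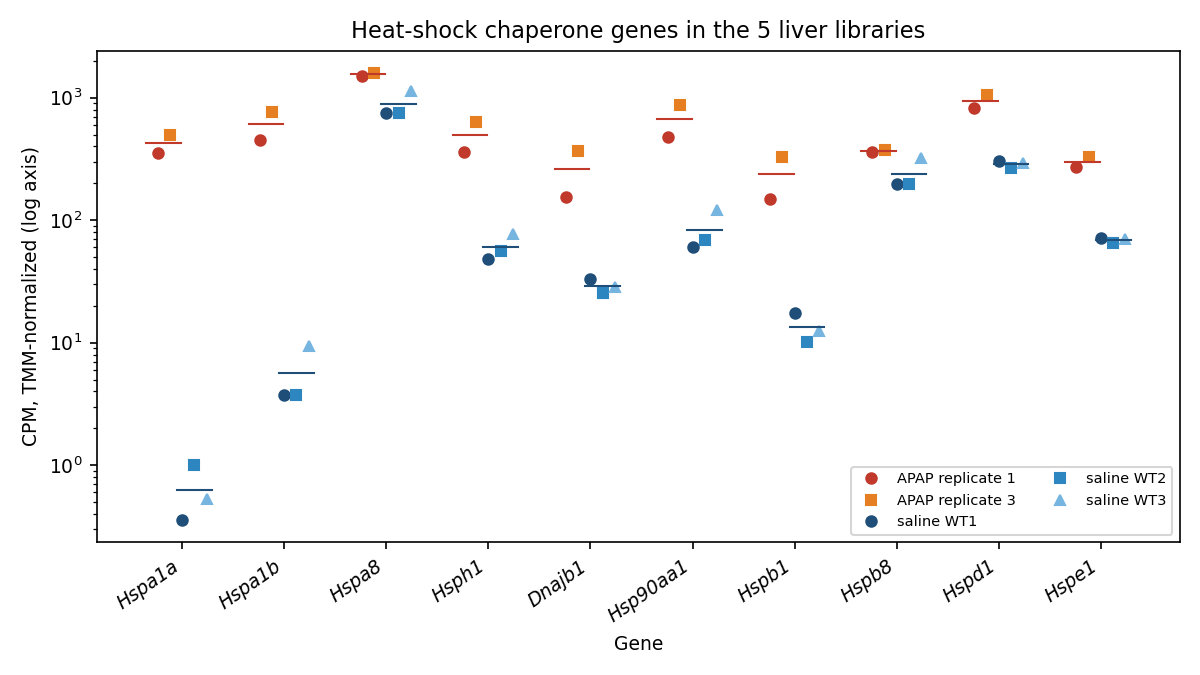
Level of each of the 10 chaperone genes in every library, in TMM-normalized CPM on a log axis. Red and orange points are the 2 APAP libraries, blue points the 3 saline libraries and horizontal lines the group means. In each gene both APAP points lie above all saline points, by the widest gap in Hspa1a (354 against 0.996 CPM) and the narrowest in Hspb8 (359.8 against 324 CPM).

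Counted over the set, 8 of 10 members rose at an adjusted p under 0.05 and 0 fell, against 3.70% of the 13734 genes tested that rose and 3.53% that fell (7.23% in either direction). With the rule that the study names, a fold change of at least 1.5 and P under 0.05, read as unadjusted, 9 of 10 rose, Hspa8 being added and Hspb8 not, against 12.3% of genes tested. The groups did not overlap in 10 of 10, against 24.0% of genes tested in which APAP was higher and 20.1% in which it was lower. The median log2 fold change was 3.02 in the members and 0.03 over all genes tested. The number of members that rose depended on the libraries WT2 and APAP replicate 3. Without WT2 it was 4, Hspa1a, Hspa1b, Hspb1 and Hspe1, while Dnajb1, Hsph1, Hsp90aa1 and Hspd1 had adjusted p-values between 0.0537 and 0.0905, and 165 rather than 993 genes passed the test in all. Without APAP replicate 3 it was 7, Hspd1 having an adjusted p of 0.0630. The log2 fold change was above 0 for each member under each alternative that tested it, which left out Hspa1a where every library had to have 10 counts, and Hspa1a and Hspa1b as single genes where they were summed.

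**Figure D2:**
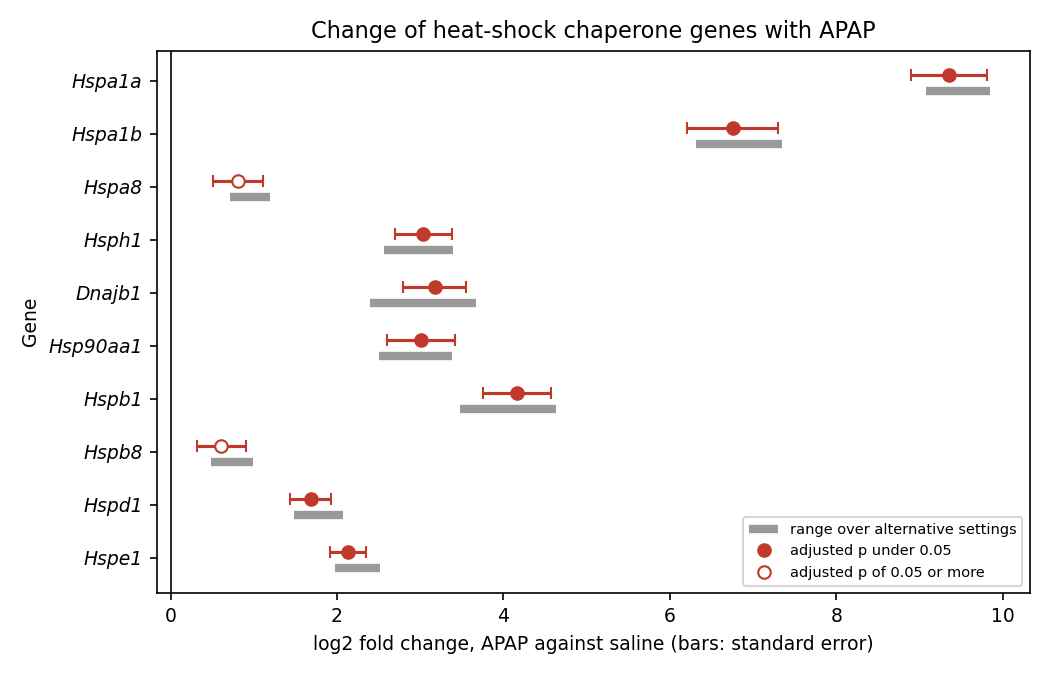
Fitted log2 fold change of each member, APAP against saline, with bars of 1 SE from the edgeR fit on 2 APAP and 3 saline libraries. Filled points passed an adjusted p under 0.05 and open points did not, and gray bars span the values under the alternative settings. Values run from 9.35 in Hspa1a to 0.61 in Hspb8, and only Hspa8 and Hspb8 are open.

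The APAP libraries were not alike. All 10 members were higher in replicate 3 than in replicate 1, while 51.8% of the genes tested were. The ratio of replicate 3 to replicate 1 was 2.39 for Dnajb1, 2.20 for Hspb1, 1.82 for Hsp90aa1, 1.77 for Hsph1 and 1.69 for Hspa1b. It was 1.41 for Hspa1a, 1.28 for Hspd1, 1.21 for Hspe1, 1.05 for Hspa8 and 1.03 for Hspb8. The ratio thus exceeded 1.5 in 5 of 10 members, against 14.2% of the genes tested, and was nearest to 1 in the 2 members that did not pass the test. Replicate 3 also had the higher summed level of hepatocyte markers and the lower one of neutrophil markers. Alb made up most of the hepatocyte sum, at 51545 CPM in replicate 1 and 89798 CPM in replicate 3. Cps1 and Tat were lower in replicate 3, and the other hepatocyte markers were higher. Among the saline libraries, WT3 was the highest in 5 members, WT1 in 4 and WT2 in 1.

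Summed over the 10 genes, the members took 0.624% and 0.740% of all counts in the APAP libraries and 0.117%, 0.142% and 0.194% in WT1, WT2 and WT3. Hspa8 and Hspd1 made up most of the sum in saline liver. The share of Hspa8 in it was 50.6%, 51.9% and 54.8% in the saline libraries and 30.8% and 23.4% in the APAP libraries. These shares compare counts and are not corrected for the lengths of the genes.

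**Figure D3:**
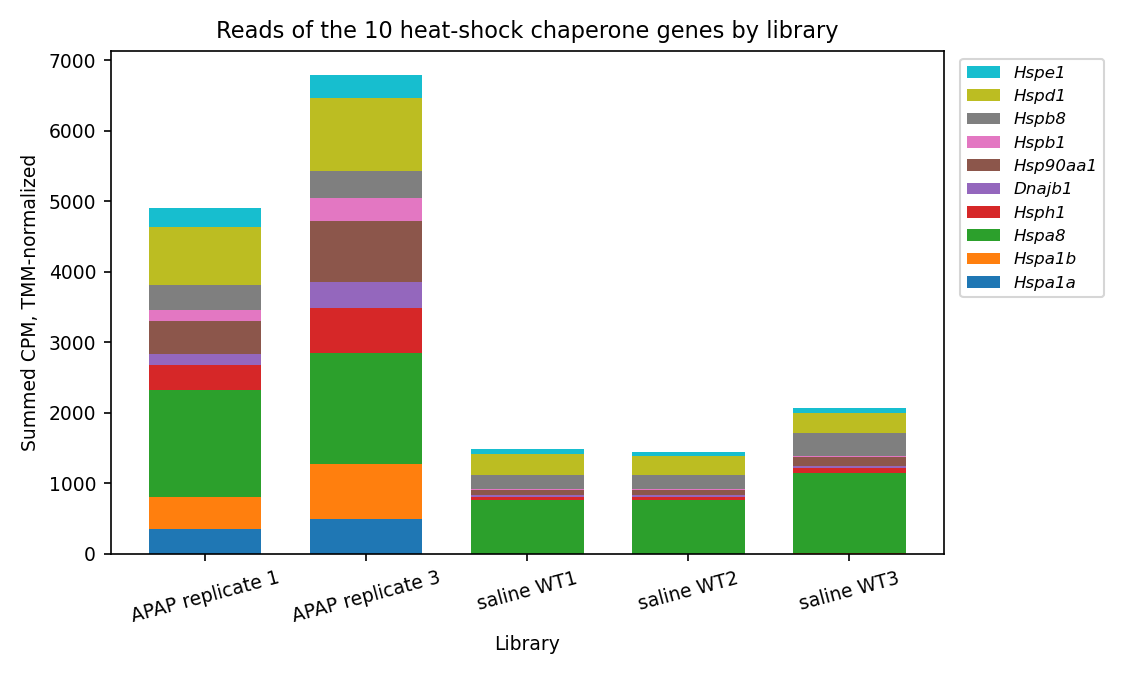
Summed level of the 10 chaperone genes in each library, in CPM on a linear axis from 0, stacked by gene. The bars reach 4904 and 6794 CPM in the APAP libraries and 1492, 1448 and 2074 CPM in WT1, WT2 and WT3, and the segments of Hspa1a and Hspa1b are visible only after APAP.

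Levels of different genes were compared per kilobase of exon (RPKM, over the union of annotated exons). Lengths came from GENCODE M21, whose spans of Hspa8 and Dnajb1 differ from those of the deposited data. Hspa8 ends at 40810087 there and at 40805200 in the deposited data. The per-length levels of these genes are therefore uncertain. In saline liver Hspa8 was the highest, at 205 RPKM, above the other members in all libraries. It was followed by Hspb8 (123 RPKM) and Hspd1 (109.7 RPKM), whose ranges overlapped, and then by Hspe1 (46.6 RPKM), apart from both neighbors. Hsp90aa1 (21.2 RPKM), Hspb1 (12.9 RPKM), Dnajb1 (9.03 RPKM) and Hsph1 (8.29 RPKM) overlapped each with the next. Hspa1b (2.01 RPKM) and Hspa1a (0.212 RPKM) were the lowest and apart. After APAP the upper 8 formed a chain of overlapping ranges. Hspa8 (359.9 RPKM), Hspd1 (352 RPKM), Hspb1 (232 RPKM), Hspa1b (218 RPKM), Hspe1 (204 RPKM), Hspb8 (188 RPKM), Hsp90aa1 (171 RPKM) and Hspa1a (144 RPKM) each overlapped with the next, and Dnajb1 (81.3 RPKM) and Hsph1 (68.1 RPKM) lay below them. Lengths of the longest protein-coding transcript gave another order after APAP. Hspa8 (647 RPKM) then stood apart above Hspe1 (388 RPKM), Hspb8 (201 RPKM) stood apart from Hspa1a (144 RPKM), and Hsph1 reached 130.1 RPKM, so that this chain rests on the length used.

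Beyond the set, 82 further genes of chaperones, cochaperones, heat-shock factors and other targets of heat shock factor 1 were examined, of which 76 were tested. Only 4 rose (Hspa1l, Bag3, Ier5 and Hmox1), 2 fell (Clpx and Bag4) and 70 did not pass the test, with a median log2 fold change of 0.13. Over all genes tested 3.70% rose and 3.53% fell. Hspa1l, another HSP70 gene beside Hspa1a, had 48.8 and 118 CPM after APAP and 0.717, 0.664 and 1.87 CPM in saline liver, a log2 fold change of 6.24 (adjusted p = 0.00369). It is overlapped by the antisense gene Gm10501, which holds 71.4% of its 50-base words, read on either strand. Gm10501 had 41 and 18 counts after APAP. Of the words of Hspa1l, 9.57% occur in Hspa1a and 7.72% in Hspa1b, so that its reads may not all be its own. Bag3, the cochaperone that hands HSP70 clients to autophagy, had 107.6 and 307 CPM against 31.3, 35.3 and 49.8 CPM, higher in replicate 3 as the members were (log2 fold change 2.42, adjusted p = 0.0279). Ier5, which promotes the activity of heat shock factor 1, had 60.4 and 34.0 CPM against 4.48, 6.58 and 6.75 CPM (log2 fold change 2.98, adjusted p = 0.00521), and here replicate 1 was the higher. Hmox1, the heme oxygenase of the oxidative stress response, had 89.9 and 122 CPM against 28.1, 16.1 and 41.4 CPM (log2 fold change 1.89, adjusted p = 0.0358). Clpx, the unfoldase of a mitochondrial matrix protease, fell from 417, 471 and 388 CPM to 158 and 114 CPM, by 1.65 on the log2 scale (adjusted p = 0.0196). Bag4, another HSP70 cochaperone, fell by 1.04 on the log2 scale (adjusted p = 0.0450).

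The calls in these genes depended on single libraries. Between 2 and 5 passed when 1 library was left out: 3 without APAP replicate 1, 2 without APAP replicate 3, 3 without WT1, 2 without WT2 and 5 without WT3. Hspa1l and Ier5 passed each time, Bag4 never did, and the log2 fold change of Bag3 was 1.46 without APAP replicate 3. With library size alone corrected for, 12 rose and 1 fell, but the median of all genes then moved to 0.42, against 0.03.

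By role, 1 of 9 other genes of the HSP70 and HSP110 families rose, Hspa1l. The mitochondrial HSP70 gene Hspa9, the most abundant of them, was at 583 and 705 CPM against 524, 470.3 and 566 CPM (log2 fold change 0.31, adjusted p = 0.495). None of 13 J-domain protein genes passed the test (median −0.03; 2 at an unadjusted p under 0.05), the most abundant over the 5 libraries being Dnaja1 (log2 fold change 0.60, adjusted p = 0.293). None of 4 small heat-shock protein genes passed either (median −0.50; 1 at an unadjusted p under 0.05), with Hspb6 the most abundant, and Cryaa and Hspb9 were at 0 in every library. Hsp90ab1, the constitutive HSP90, was at 1206 and 2369 CPM against 985, 735 and 780.2 CPM (log2 fold change 1.10, adjusted p = 0.118), and Trap1, the mitochondrial HSP90, at 71.7 and 82.9 CPM against 150.04, 148 and 119 CPM (log2 fold change −0.85, adjusted p = 0.0732). Neither passed the test (both had an unadjusted p under 0.05), while DESeq2 called both. Of 8 subunits of TRiC, the cytosolic chaperonin that folds actin and tubulin, 0 passed (median 0.46), 3 had an unadjusted p under 0.05 and DESeq2 called 1, although in 7 both APAP libraries were above all saline libraries, which held for 24.0% of all genes tested.

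The cochaperones of HSP90 held 0 of 12 genes that passed the test (median 0.18; 0 at an unadjusted p under 0.05). Of 10 cochaperones of HSP70, Bag3 rose and Bag4 fell (median −0.24), and of 8 other mitochondrial chaperones and proteases Clpx fell (median −0.25). Among 4 tested genes of heat-shock factors and their regulators 0 passed (0 at an unadjusted p under 0.05). In the 6 lists with 0 calls, the likelihood ratio and exact tests of edgeR called Hsp90ab1 alone, and DESeq2 called Hsp90ab1, Trap1 and Cct3. Hsf1 itself was at 11.2 and 12.1 CPM after APAP and at 11.2, 11.8 and 14.6 CPM in saline liver, with overlapping groups (log2 fold change −0.11, SE 0.23, adjusted p = 0.812). Of 6 other target genes 2 rose (median 0.86), and Ubb, the most abundant, did not pass (log2 fold change 0.10, adjusted p = 0.882). Hspa5, the HSP70 of the endoplasmic reticulum and a marker of the unfolded protein response there, was at 1152 and 936 CPM against 589, 592 and 804 CPM (log2 fold change 0.66, SE 0.28, adjusted p = 0.204).

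**Figure D4:**
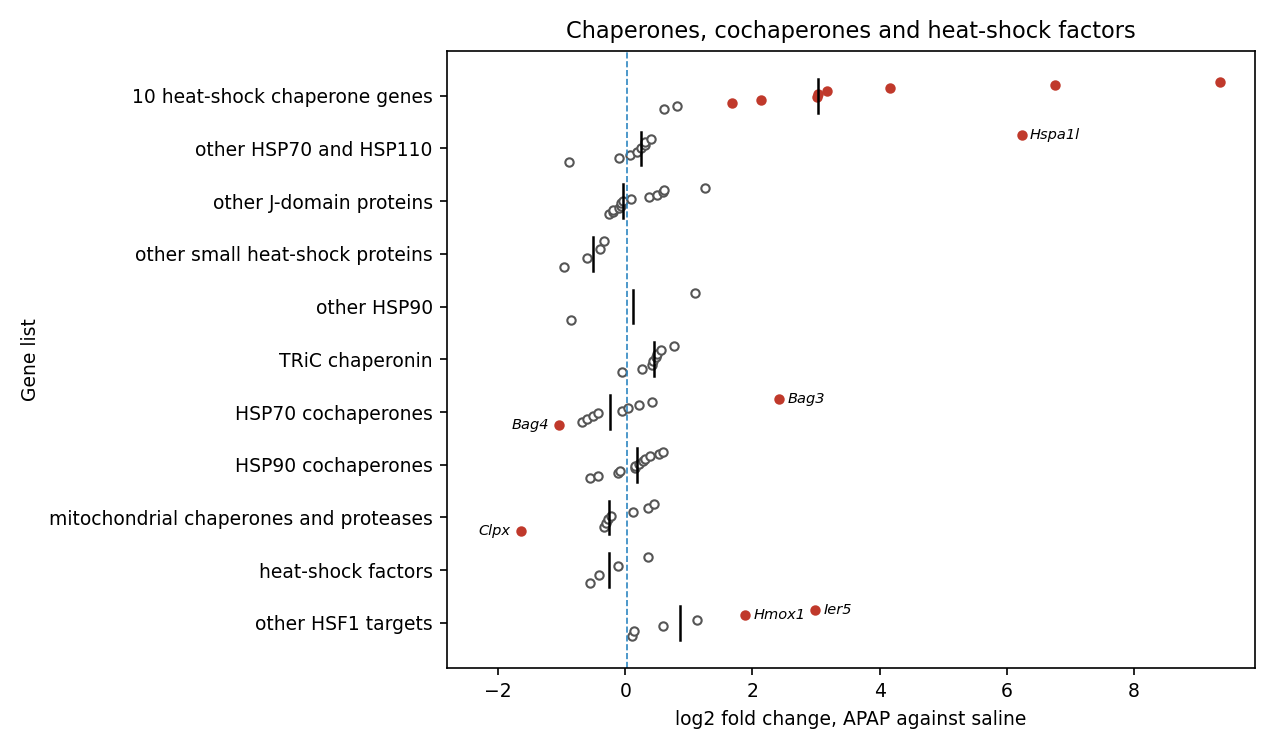
Fitted log2 fold change, APAP against saline, of the 10 members and of the other chaperone genes tested, 1 row per list. Filled points passed an adjusted p under 0.05 and are named outside the members, open points did not, short black lines are list medians and the dashed line is the median of all genes tested. Filled points are 8 of 10 in the members and 6 of 76 in the other lists.

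The pattern of the members over the 5 libraries was also matched to genes outside the chaperone lists. Each gene's log2 CPM was centered on the midpoint between its APAP mean and its saline mean. It was compared with the mean centered profile of the 10 members by the root mean square of the differences. The search covered 8354 tested genes whose mean was 10 CPM or more in the higher group. Among the nearest were Tubb6, Zfand2a, Myc and Pvr, at distances between 0.190 and 0.248 on the log2 scale. Tubb6, a beta-tubulin, was at 47.8 and 57.1 CPM after APAP and at 4.12, 5.25 and 4.88 CPM in saline liver. Zfand2a, an arsenite-inducible zinc finger protein of the proteasome, was at 88.2 and 106.8 CPM against 8.34, 10.6 and 12.96 CPM. In both genes the APAP libraries lay far above the saline range. Myc, the growth transcription factor, was at 17.5 and 19.3 CPM against 1.34, 1.79 and 2.34 CPM. These genes were picked for their nearness to the profile, so that nearness and the higher levels after APAP follow from the choice. The members were not picked that way and lay between 0.261 (Hsph1) and 3.04 (Hspa1a) from their own mean profile.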

How the data were processed

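Livers were sequenced on an Illumina NovaSeq instrument. The authors used HISAT2 for alignment, and the deposited values are raw counts of reads per gene. The submitters' processing notes name GRCm38 and mm10, and the aligner version, annotation and strand setting are not given in the sources used here. Of 34745 gene identifiers 34267 were found in GENCODE M21, 27682 with identical coordinates and strand. Coordinates are those of the deposited table. Another 5 columns hold FPKM and were not used.

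The model was fitted to the counts with edgeR 4.0.16 under R 4.3.3: filterByExpr (minimum count 10, minimum total 15), TMM normalization, glmQLFit and glmQLFTest on the group, and Benjamini-Hochberg adjustment over 13734 genes. CPM values are scaled by TMM. The study names edgeR but no covariate. The script was tested on simulated data. Sequences came from RefSeq. Alternatives were the likelihood ratio and exact tests, DESeq2 1.42.0, other size factors, other filters, leaving out each library, summing Hspa1a with Hspa1b and adding retrocopy counts.

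The members and the gene lists were chosen with earlier results of these data known. The text names the members, every gene of the wider lists that passed the test, the most abundant gene of each chaperone list, Hsf1, Hspa5, the 5 genes of most similar pattern (1 is not reported here), and sex-linked and cell type markers. Retrocopies and overlapping genes are named for their sequence or position, and Trap1 was chosen after its values were seen. The study's methods name biological repeats for all experiments, but the labels do not tie libraries to animals, so p-values measure the spread between these libraries, which may be partly technical. Intervals and the floor of 3 counts cover counting error only.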

Additional observations from a re-analysis of the deposited data

How the results depend on the processing

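The depth limits Hspa1a in saline liver, where 4 to 15 counts were found, and 2 libraries limit the APAP group. No outlier check was possible in groups of 2 and 3. All 147 log2 fold changes of members under the alternatives were above 0, and 140 kept their side of the threshold. Some of the 147 nearly repeat the main fit. Summing Hspa1a with Hspa1b left the counts of the other members unchanged. Adding retrocopy counts changed those of Hspd1, Hspb1 and Hsp90aa1 only. Without WT2, Dnajb1, Hsph1, Hsp90aa1 and Hspd1 were lost, and Hspd1 also without APAP replicate 3. Hspa8 was gained with DESeq2 and with library size only. Leaving out 1 library gave 4 to 8 members (8 with all libraries), 2 to 5 other chaperone genes (6), 165 to 922 genes in all (993) and a log2 fold change of 6.99 to 7.87 for the Hspa1 pair (7.37). Without either APAP library the remaining one is assumed to vary like the saline libraries. Other alternatives gave 7 to 9 members, the 7 with at least 10 counts required in every library, where Hspa1a was not tested. The fold and unadjusted P rule gave 3228 genes and 13 other chaperone genes. The likelihood ratio test gave 1835 genes, the exact test 1776 and DESeq2 2093. Library size only gave 13 other chaperone genes, and 1042 genes higher and 297 lower in place of 508 and 485. With 2 units in place of 3, 7 promoters held an element. With the longest transcript, the summed level after APAP was 2661 in place of 2017 RPKM. For the changed counts of calls the cause was not tested, beyond the smaller number of libraries where 1 was left out. The retrocopy counts were added after seeing the data and changed no call. No paired analysis was possible because the saline columns carry no replicate number of the saline samples.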
